A study of Mus musculus with 30 samples.

Results

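Expression of 9 genes of the interleukin 6 (IL-6) and interleukin 10 (IL-10) cytokine families was followed in bone marrow (BM) cells and in cells labelled as adipose tissue macrophages (ATMs). The mice were described as carrying a graft with mutant *Shp2*. The 9 genes were chosen by symbol: the ligands *Il6*, *Osm*, *Lif*, *Il10* and *Tgfb1* and the receptor chains *Il6ra*, *Il6st*, *Il10ra* and *Il10rb*. All 9 were present in both count tables, among 13353 genes in BM and 17059 genes in ATMs. *Tgfb1*, which belongs to neither family by structure, was included as a further anti-inflammatory cytokine of myeloid cells.

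RNA-seq was performed on 30 libraries, 15 per tissue, in 5 groups of 3 per tissue. Recipients had been lethally irradiated (700 cGy and 400 cGy) and given CD45.2+ marrow of Shp2E76K/+;LysM-Cre+ mice mixed with an equal number of Boy/J CD45.1+ competitor cells. LysM-Cre switches on the activated SHP2 phosphatase in myeloid cells, whereas the competitor cells carry no mutant allele, so a library can mix RNA of mutant, competitor and host cells. WT libraries came from wild-type recipients. The other 4 groups were leptin-deficient, obese *Ob/Ob* recipients that received, from 8 weeks after transplantation and for 30 days, Vehicle, the GLP-1 receptor agonist beinaglutide (GLP1RA, 3 mg/kg, subcutaneous), an antibody against IL-17A (antiIL17A, 200 μg per mouse 3 times a week, intraperitoneal), or both agents (Combo). Mice were about 12 to 14 weeks old by the labels, and the genotype field reads C57BL/6J throughout. Recipients were 10 to 12 weeks old at irradiation by the study's methods, so the labelled age cannot be that of treated mice at sampling. The labels do not state the graft of each WT library or any treatment of the WT mice. Vehicle against WT therefore compares recipients that differ in leptin and may differ in graft, injection and time after transplantation. ATMs were labelled as F4/80+ cells sorted from visceral fat, BM was taken as whole marrow, and each group was labelled as 3 biological replicates.

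IL-6 binds IL-6 receptor α (*Il6ra*) and then the shared chain gp130 (*Il6st*), which also serves leukemia inhibitory factor (*Lif*) and oncostatin M (*Osm*). gp130 activates JAK kinases and STAT3, recruits SHP2, and is restrained by SOCS3. IL-10 signals through *Il10ra* and *Il10rb*, also to STAT3, and limits cytokine output of macrophages. TGF-β1 is secreted in a latent form that integrins, thrombospondin 1 and GARP (*Lrrc32*) help to release or hold.

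Library totals ranged from 31086184 to 39925495 counts in BM and from 24876074 to 45300263 in ATMs. Replicates lay closer in BM (common biological coefficient of variation 3.51%) than in ATMs (32.5%). Whether the replicates of a group came from separate mice was not tested, so p-values below need not reflect spread between mice. WT BM replicate 1 stood apart, since its counts differed from replicates 2 and 3 with chi-square values per degree of freedom of 39.3 and 30.0, against 2.04 to 4.5 for the other pairs of BM replicates. *Xist*, the RNA of the inactive X chromosome, had 5284 to 6250 counts in Vehicle BM and 3382 to 3555 in Combo BM, against 0 to 125 in the other BM groups. In ATMs it had 747 to 1024 counts in Vehicle and 1098 to 1400 in Combo, against 0 to 53 elsewhere, and the Y-linked *Ddx3y* was lower in Vehicle and Combo in both tissues. Groups were labelled as matched for sex, but these counts of sex-linked RNA differed between groups and go against that label. Sex and group therefore cannot be told apart wherever Vehicle or Combo is set against WT or a single agent. Combo and Vehicle both held *Xist* RNA, but in BM their Y-linked RNA differed too, with 579 to 655 counts of *Ddx3y* in Vehicle and 143 to 170 in Combo and 933 to 1029 counts of *Eif2s3y* in Vehicle and 141 to 180 in Combo. The part of this in the BM results of Combo against Vehicle was not tested. *Adgre1*, which encodes the F4/80 antigen used to sort the ATMs, had 750 to 1184 counts in Vehicle ATMs and 5363 to 42339 in the other ATM groups.

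Marker genes of other cells also moved with the groups. In ATMs, 5 of 6 neutrophil markers were in the table, and their summed level was 18000 to 19300 counts per 1e6 (CPM) in Vehicle and 9180 to 9460 in Combo, against 116 to 272 in WT, GLP1RA and antiIL17A; none of the 5 was at 0 in a whole group. All 7 stromal markers were in the ATM table and summed to 2750 to 3200 CPM in Vehicle and 5940 to 11000 in the other groups. The 6 monocyte and macrophage markers summed to 1060 to 1120 CPM in WT ATMs, 1330 to 1420 in Vehicle and 2200 to 3700 in the treated groups, but its members moved in different directions. From WT to Vehicle ATMs the mean of *Csf1r* went from 547 to 47.6 CPM and that of *Adgre1* from 208 to 42.3, while *Ly6c2* went from 32.9 to 555, *Fcgr1* from 12.5 to 164 and *Cd68* from 262 to 526. All 4 endothelial markers were measured in ATMs and summed to 1360 to 1520 CPM in Vehicle and 360 to 469 elsewhere. WT ATMs held 3 of 4 epididymis markers at 2970 to 3130 CPM in sum, against 0 to 158 in the other groups, where *Lcn5* and *Defb48* were at 0 in Vehicle and Combo. The 5 acinar markers of the pancreas summed to 722 to 747 CPM in Combo ATMs and 7.61 to 27 elsewhere. In BM, the 6 monocyte and macrophage markers summed to 3080 to 3260 CPM in Vehicle and 750 to 1130 in the other groups. *Ly6c2* made up most of that sum, with a mean of 2700 CPM in Vehicle and 673 in WT, and *Fcgr1*, *Cd68* and *Mertk* were also highest in Vehicle. *Csf1r* had 139 CPM in Vehicle and 138 in WT, and *Adgre1* was lower in Vehicle (23.3 CPM) than in WT (41.1). In BM 5 of 6 neutrophil markers summed to 59600 to 99300 CPM over all groups. In such bulk samples, fewer cells of a type and less RNA per cell cannot be told apart.

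**Figure D1:**
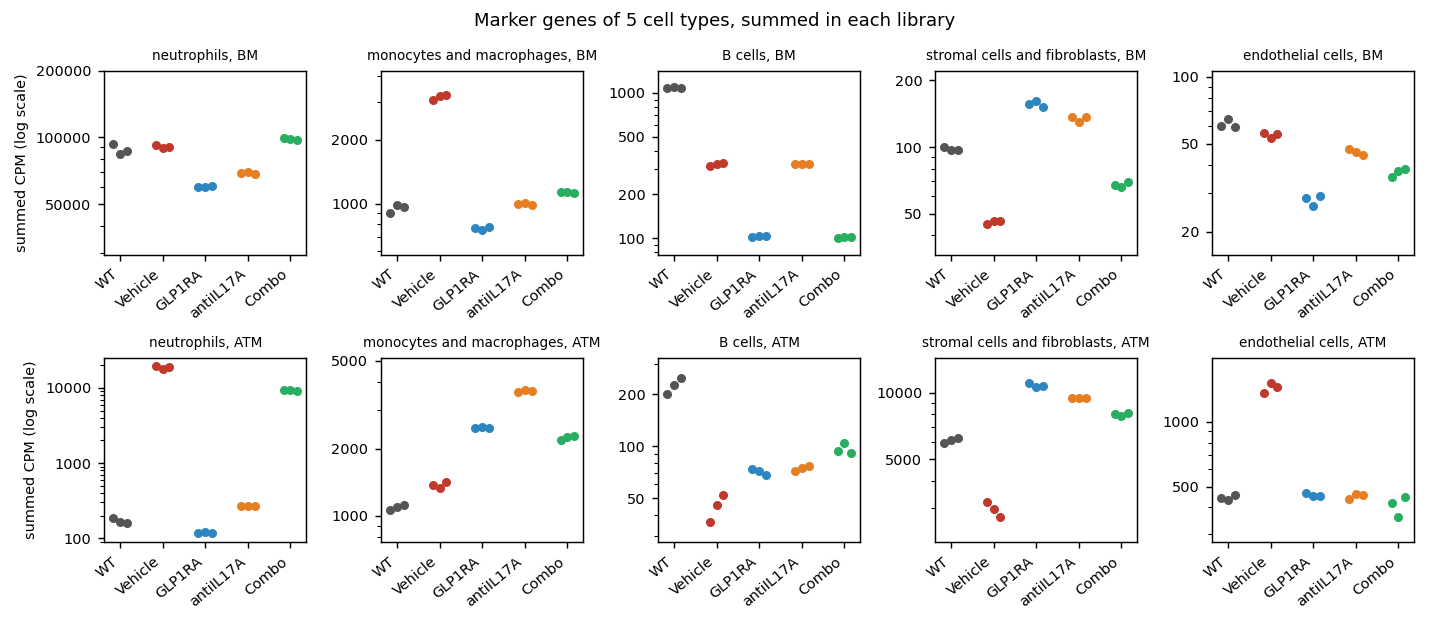
Summed level of marker genes (CPM, logarithmic axis) of 5 cell types in each BM library (upper row) and ATM library (lower row), 3 points per group. Neutrophil markers in ATMs lie at 9180 to 19300 CPM in Vehicle and Combo and at 116 to 272 CPM in the other 3 groups.

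Positions of the 9 genes are those of GENCODE M21 on GRCm38, the build of the count tables. *Il6* lies on chromosome 5 (30013114 to 30019981, plus strand), *Il6ra* on chromosome 3 (89864059 to 89913196, minus strand) and *Il6st* on chromosome 13 (112464070 to 112510086, plus strand). *Osm* (4236420 to 4241026) and *Lif* (4257557 to 4272514) are neighbours on the plus strand of chromosome 11. *Il10* lies on chromosome 1 (131019845 to 131024974, plus strand), *Il10ra* on chromosome 9 (45253837 to 45269149, minus strand), *Il10rb* on chromosome 16 (91406164 to 91425834, plus strand) and *Tgfb1* on chromosome 7 (25687002 to 25705077, plus strand). Counting ignored strand and gave a read to every gene it overlapped. Of the exon bases, 569 of 3808 in *Il10rb* were shared with *Gm21970* and 242 of 8642 in *Il6ra* with *Gm42809*, and the other 7 genes shared none.

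RefSeq promoter windows (GRCm38.p6, 250 bases before to 50 after the gene start) were matched for 5 of the 9 genes, *Il6*, *Il6ra*, *Il6st*, *Lif* and *Tgfb1*. The windows of *Il6* (chr5:30012864-30013163, plus strand) and *Lif* (chr11:4257318-4257617, plus strand) are shown because these ligands had the widest ranges among the 5. Capitals mark a match to the NF-κB motif GGGANTTTC, searched on both strands.
Il6: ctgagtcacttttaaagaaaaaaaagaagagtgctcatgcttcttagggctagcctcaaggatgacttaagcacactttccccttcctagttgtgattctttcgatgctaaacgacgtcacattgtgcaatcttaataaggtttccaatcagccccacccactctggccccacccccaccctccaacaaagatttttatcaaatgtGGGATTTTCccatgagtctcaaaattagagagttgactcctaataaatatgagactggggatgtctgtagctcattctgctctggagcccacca
Lif: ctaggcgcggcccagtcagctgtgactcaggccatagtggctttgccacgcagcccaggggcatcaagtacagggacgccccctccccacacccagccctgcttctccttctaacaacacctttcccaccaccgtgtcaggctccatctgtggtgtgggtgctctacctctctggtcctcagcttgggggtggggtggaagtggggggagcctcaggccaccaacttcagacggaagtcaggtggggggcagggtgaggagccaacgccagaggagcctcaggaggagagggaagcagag
The match in *Il6* began 44 bases and ended 36 bases before the gene start, on the strand of the gene. It is a description of the letters in this window. NF-κB matches were found in 1.11% of all 32851 promoter windows. Neither the STAT motif TTCNNNGAA, the CRE motif TGACGTCA nor the C/EBP motif TTGCGNAA was matched in any of the 5 windows, and these motifs were matched in 8.30%, 1.79% and 0.798% of all windows.

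Values for each gene are given as normalized counts, that is, counts rescaled to the average TMM-adjusted library size of the tissue, so they can be compared between groups of 1 tissue but not between genes. A gene was called when edgeR gave a false discovery rate (FDR) below 0.05 over all genes of the table and the absolute log2 difference was above 1. In Vehicle against WT BM, *Il6*, *Lif* and *Il10* were called higher, 3 of 9 genes, while 19.5% of all BM genes were called in either direction. These 3 ligands had 2 to 40 counts per library in WT BM and 123 to 303 in obese recipients given Vehicle. They fell in all 3 treated groups, while for each receptor chain the highest group was at most 2.36 times the lowest.

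*Il6*, the ligand that names the first family, read 30.3, 30.7 and 43.1 normalized counts in the 3 WT BM libraries and 344, 303 and 324 in Vehicle. It read 89.1, 46.5 and 67.4 with GLP1RA, 38.6, 20.7 and 29 with antiIL17A and 17.5, 16.9 and 26.1 with Combo. All Vehicle libraries were above every other BM library, GLP1RA was next, and antiIL17A overlapped both WT above it and Combo below it. The log2 difference of Vehicle minus WT was 3.23 (SE 0.196, edgeR adjusted p = 4.53e-18). Against Vehicle it was -2.26 (SE 0.175, edgeR adjusted p = 1.02e-14) with GLP1RA, -3.47 (SE 0.200, edgeR adjusted p = 1.05e-18) with antiIL17A and -3.99 (SE 0.218, edgeR adjusted p = 1.44e-19) with Combo. The monocyte and macrophage marker sum, most of it *Ly6c2*, was also highest in Vehicle BM, whereas *Adgre1* and *Csf1r* were not. The sum was lowest with GLP1RA (750 to 775 CPM), where *Il6* was next to Vehicle. Its part in the *Il6*, *Il10* and *Lif* results in BM was not tested.

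*Il10*, the founding ligand of the second family, had 3, 4 and 3 raw counts in the WT BM libraries and 123, 133 and 129 in Vehicle. It had 5, 11 and 10 counts with GLP1RA, 8, 13 and 2 with antiIL17A and 4, 1 and 4 with Combo. Only the Vehicle libraries exceeded 13 counts, and neighbours in the order of the 4 other groups overlapped. As a ratio of summed counts scaled by library size, Vehicle was 45.0-fold above WT (95% exact interval 24.2 to 94.6, counting error only) and Combo was 0.0215 of Vehicle (0.00977 to 0.0413). The log2 difference was 5.44 (SE 0.383, edgeR adjusted p = 3.86e-16) for Vehicle against WT, -4.14 (SE 0.324, edgeR adjusted p = 1.14e-14) for GLP1RA against Vehicle, -4.32 (SE 0.331, edgeR adjusted p = 5.97e-15) for antiIL17A against Vehicle and -5.49 (SE 0.392, edgeR adjusted p = 5.97e-16) for Combo against Vehicle.

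*Lif*, a ligand of gp130 with the LIF receptor, had 7, 2 and 2 raw counts in WT BM and 168, 144 and 137 in Vehicle. With GLP1RA it had 20, 9 and 7 counts, with antiIL17A 16, 27 and 29 and with Combo 19, 5 and 9. All Vehicle libraries stood apart from the rest, WT was lowest but for an overlap with Combo, and the 3 treated groups overlapped. The scaled ratio of Vehicle to WT was 47.7 (95% exact interval 26.4 to 96.2), and the log2 difference was 5.53 (SE 0.373, edgeR adjusted p = 1.03e-16). Against Vehicle the log2 difference was -3.90 (SE 0.303, edgeR adjusted p = 9.52e-15) with GLP1RA, -2.91 (SE 0.270, edgeR adjusted p = 1.56e-12) with antiIL17A and -3.87 (SE 0.309, edgeR adjusted p = 1.76e-14) with Combo.

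*Osm*, a macrophage and neutrophil cytokine and the neighbour of *Lif* on chromosome 11, followed another order in BM. It read 2849, 3002 and 2840.2 normalized counts in WT, 4150.4, 4431 and 4224 in Vehicle and 1846, 1873 and 1846 with GLP1RA. The values were 6761, 6959 and 6603 with antiIL17A and 5481, 5381 and 5475 with Combo. No 2 of the 5 groups overlapped, with antiIL17A highest and GLP1RA lowest. Relative to Vehicle, the log2 difference was -1.20 (SE 0.0336, edgeR adjusted p = 9.48e-30) with GLP1RA, 0.67 (SE 0.0309, edgeR adjusted p = 5.91e-22) with antiIL17A and 0.35 (SE 0.0313, edgeR adjusted p = 4.56e-13) with Combo. Only the first passed the limit of 1, and it was -0.97 when library totals replaced TMM scaling. Vehicle exceeded WT by a log2 difference of 0.56 (SE 0.0324, edgeR adjusted p = 7.46e-19). The neutrophil marker sum of BM was likewise lowest with GLP1RA (59600 to 60200 CPM) but highest with Combo (97200 to 99300 CPM), and its part in the result was not tested.

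*Tgfb1*, the fifth ligand, was the most even of the ligands in BM. Its mean was 6172 ± 301 normalized counts in WT (SD, n = 3), 5731 ± 185 in Vehicle, 5441 ± 145 with GLP1RA, 6916 ± 262 with antiIL17A and 7849.6 ± 207 with Combo. Combo exceeded Vehicle by a log2 difference of 0.45 (SE 0.0334, edgeR adjusted p = 2.15e-14) and antiIL17A exceeded it by 0.27 (SE 0.0334, edgeR adjusted p = 6.69e-09). GLP1RA was below Vehicle by a log2 difference of -0.075 (SE 0.0337, edgeR adjusted p = 0.0456), a sign that turned to 0.16 with library totals.

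**Figure D2:**
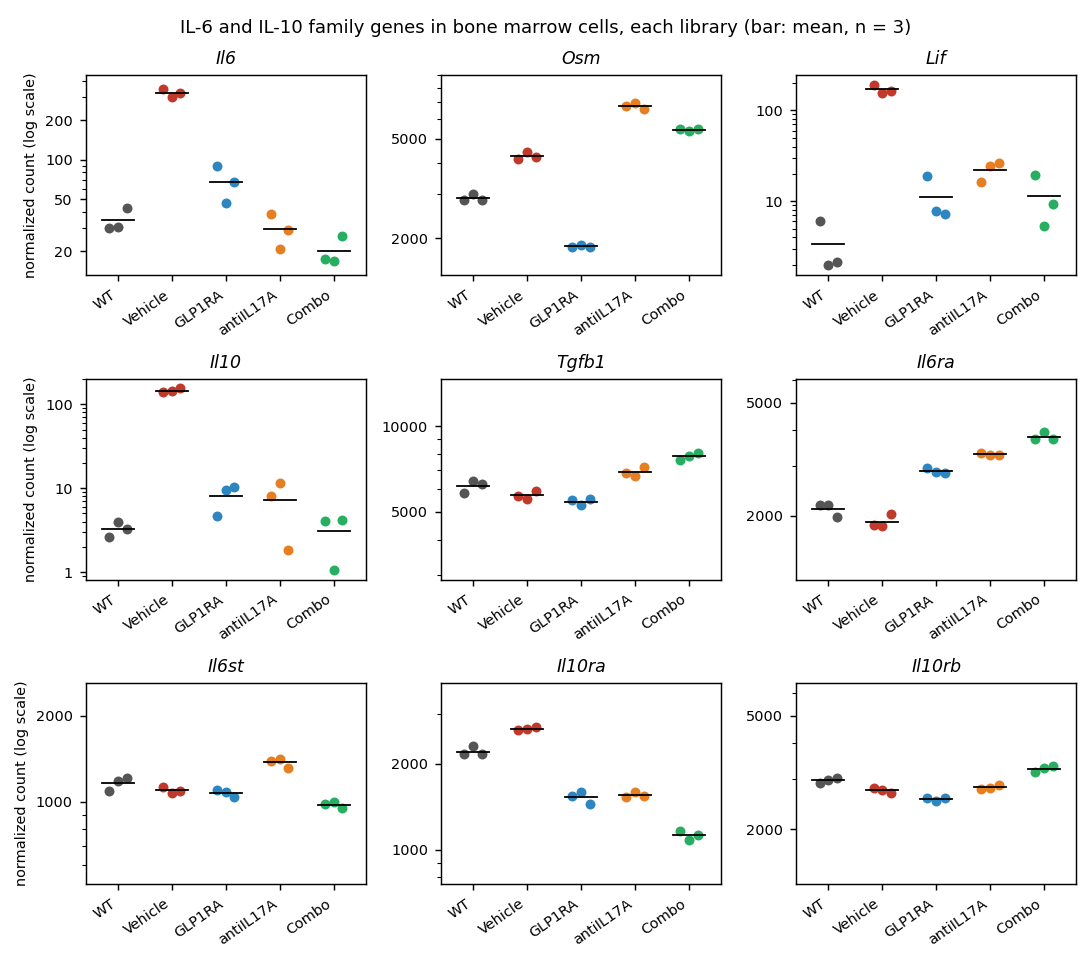
Normalized counts (logarithmic axis, scaled for each gene) of the 9 genes in each BM library by group, 3 points per group with the mean as a bar. *Il6*, *Lif* and *Il10* stand above all other groups in the 3 Vehicle libraries, and *Il6ra* is highest in the 3 Combo libraries.

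Of the receptor chains in BM, *Il6ra* and *Il10ra* changed most and in opposite directions. *Il6ra*, the IL-6-binding chain, read 2189, 2177 and 1986 normalized counts in WT, 1859.8, 1844 and 2035 in Vehicle and 2950.3, 2863 and 2840.0 with GLP1RA. It read 3321, 3274 and 3276 with antiIL17A and 3711, 3931 and 3736 with Combo. The 3 treated groups did not overlap one another and all lay above Vehicle and WT, which overlapped. The log2 difference from Vehicle was 0.59 (SE 0.0409, edgeR adjusted p = 2.1e-16) with GLP1RA, 0.78 (SE 0.0406, edgeR adjusted p = 2.24e-20) with antiIL17A and 0.99 (SE 0.0405, edgeR adjusted p = 6.39e-24) with Combo. None passed the limit of 1, although the last reached 1.00 without Combo replicate 1.

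*Il10ra*, the IL-10-binding chain, ran the other way. It read 2163, 2301 and 2157 normalized counts in WT, 2634, 2644 and 2688 in Vehicle and 1165, 1084 and 1125 with Combo. With GLP1RA it read 1546, 1586 and 1450.1, overlapping antiIL17A at 1524, 1598 and 1536. Its Combo libraries were below every other BM library. Vehicle was above WT by a log2 difference of 0.27 (SE 0.0415, edgeR adjusted p = 3.13e-07). The log2 difference from Vehicle was -0.80 (SE 0.0427, edgeR adjusted p = 6.44e-20) with GLP1RA, -0.77 (SE 0.0426, edgeR adjusted p = 1.72e-19) with antiIL17A and -1.24 (SE 0.0445, edgeR adjusted p = 6.6e-26) with Combo, and the last was called.

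The shared chains *Il6st* and *Il10rb* moved least in BM. *Il6st*, which encodes gp130, had means of 1158 ± 60.1 in WT (SD, n = 3), 1095 ± 30.9 in Vehicle, 1073 ± 29.1 with GLP1RA, 1372 ± 54.2 with antiIL17A and 975 ± 24.2 with Combo. Of the treated groups antiIL17A was above Vehicle, by a log2 difference of 0.33 (SE 0.0513, edgeR adjusted p = 4.78e-07), and Combo was below it, by -0.17 (SE 0.0535, edgeR adjusted p = 0.00522). *Il10rb*, also a chain of the IL-22 receptor, ranged from 2546 ± 37.2 with GLP1RA to 3260.4 ± 85 with Combo, and the log2 difference of Combo from Vehicle was 0.26 (SE 0.0347, edgeR adjusted p = 2.14e-08). With GLP1RA it was -0.10 (SE 0.0351, edgeR adjusted p = 0.0093), which turned to 0.13 with library totals.

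Against Vehicle BM, 4 of 9 genes were called lower with GLP1RA (*Il6*, *Lif*, *Il10* and *Osm*; 16.7% of all genes called in either direction), 3 with antiIL17A (*Il6*, *Lif* and *Il10*; 16.1%) and 4 with Combo (*Il6*, *Lif*, *Il10* and *Il10ra*; 17.7%). None was called higher. The 3 comparisons share the Vehicle libraries, in which *Il6*, *Lif* and *Il10* were high.

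Combo BM was set against WT and against each single agent to ask where both agents together left these genes. Against WT, 1 of 9 genes was called, *Lif*, which was higher with a log2 difference of 1.66 (SE 0.580, edgeR adjusted p = 0.0103), while 14.3% of all genes were called. *Lif* counts in Combo and WT overlapped, and without Combo replicate 1 the value was 1.03 with an adjusted p of 0.172 (edgeR). *Il10* in Combo BM did not differ detectably from WT at these counts, with a scaled ratio of 0.968 (95% exact interval 0.348 to 2.65). *Osm* and *Il6ra* were above WT in Combo BM, with log2 differences of 0.91 (SE 0.0319, edgeR adjusted p = 3.67e-26) and 0.84 (SE 0.0395, edgeR adjusted p = 8.56e-22), and *Il10ra* was below it, with -0.97 (SE 0.0446, edgeR adjusted p = 3.48e-22). *Il6* was also below WT, with -0.77 (SE 0.295, edgeR adjusted p = 0.0193).

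Combo BM against GLP1RA called 3 of 9 genes (13.2% of all genes). *Il6* was lower, with a log2 difference of -1.73 (SE 0.261, edgeR adjusted p = 2.04e-07), and *Osm* was higher, with 1.55 (SE 0.0331, edgeR adjusted p = 2.07e-33). *Il10* was lower, with -1.35 (SE 0.618, edgeR adjusted p = 0.0492), a call on 9 counts against 26 that was lost with the replicate number as a block (adjusted p = 0.0558, edgeR) and without any of 5 of the 6 libraries compared. Combo BM against antiIL17A called 0 of 9 genes by edgeR and 0 by DESeq2 (5.67% of all genes by edgeR). By edgeR 7 of 9 passed the FDR threshold but not the limit on fold change. Of all 13353 BM genes, 7015 passed the FDR threshold there. *Il10ra* had a log2 difference of -0.47 (SE 0.0457, edgeR adjusted p = 2.2e-11) there, *Il6st* -0.49 (SE 0.0515, edgeR adjusted p = 1.14e-10) and *Osm* -0.32 (SE 0.0304, edgeR adjusted p = 1.33e-11). *Lif*, at -0.96, passed the limit of 1 with library totals, with the replicate block and without antiIL17A replicate 1 or Combo replicate 1. *Il10* was at -1.17 (SE 0.633, edgeR adjusted p = 0.12) and passed the FDR threshold without antiIL17A replicate 3 (-1.64, adjusted p = 0.0242, edgeR).

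In ATMs, *Il6*, *Osm* and *Lif* were called higher in Vehicle than in WT, 3 of 9 genes, a share near the 35.4% of all ATM genes called in either direction. *Osm* had the largest of these differences. *Il10*, highest in Vehicle in BM, was highest with GLP1RA in ATMs, at 2.83 times its WT mean. *Il6* was lowest with Combo, below WT as well as below each single agent.

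*Il6* read 7556, 7336 and 7946 normalized counts in WT ATMs and 18771, 17119.7 and 19389 in Vehicle. It read 13731, 13787 and 13793 with GLP1RA, 5533, 4924 and 4838 with antiIL17A and 1194, 1208 and 962 with Combo. No 2 of the 5 groups overlapped. Vehicle exceeded WT by a log2 difference of 1.27 (SE 0.0777, edgeR adjusted p = 1.12e-09), which was 0.84 with library totals and then below the limit. From Vehicle the difference was -0.42 (SE 0.0765, edgeR adjusted p = 0.000253) with GLP1RA, -1.85 (SE 0.0789, edgeR adjusted p = 1.3e-11) with antiIL17A and -4.04 (SE 0.0873, edgeR adjusted p = 4.67e-15) with Combo, so only GLP1RA was within the limit of 1. The order of the groups was the same as in BM. Endothelial markers were also highest in Vehicle ATMs and were within 360 to 469 CPM in the other 4 groups, among which *Il6* differed. Their part in the difference between Vehicle and WT was not tested.

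*Osm* read 1184, 1297 and 1246 normalized counts in WT ATMs and 11431, 11150.4 and 11259.9 in Vehicle. It read 1223, 1665 and 1255 with GLP1RA, 1175, 1346 and 1446 with antiIL17A and 4497, 4144 and 4026 with Combo. Vehicle stood apart from all other groups, Combo lay between, and WT, GLP1RA and antiIL17A overlapped. The log2 difference of Vehicle minus WT was 3.18 (SE 0.112, edgeR adjusted p = 1.13e-12). From Vehicle it was -3.03 (SE 0.111, edgeR adjusted p = 2.17e-12) with GLP1RA, -3.09 (SE 0.111, edgeR adjusted p = 1.51e-12) with antiIL17A and -1.42 (SE 0.104, edgeR adjusted p = 1.35e-08) with Combo. Summed neutrophil markers were likewise highest in Vehicle ATMs, then Combo, then the other 3 groups. Their part in the *Osm* result was not tested.

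*Lif* read 354, 343 and 320.3 normalized counts in WT ATMs and 1093, 1384 and 1142 in Vehicle. It read 807, 696 and 731 with GLP1RA, 78.5, 146 and 132 with antiIL17A and 279.9, 219 and 137 with Combo. Vehicle, GLP1RA and WT stood apart in that order, and Combo overlapped antiIL17A below WT. Vehicle minus WT was 1.83 (SE 0.252, edgeR adjusted p = 1.5e-05) on the log2 scale. From Vehicle the log2 difference was -0.69 (SE 0.244, edgeR adjusted p = 0.0253) with GLP1RA, -3.34 (SE 0.268, edgeR adjusted p = 3.27e-08) with antiIL17A and -2.50 (SE 0.258, edgeR adjusted p = 7.73e-07) with Combo.

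*Il10* read 287, 258 and 323 normalized counts in WT ATMs, 513, 442 and 449 in Vehicle and 858, 871 and 726 with GLP1RA. It read 572, 615 and 610.1 with antiIL17A and 615, 455 and 465 with Combo. WT was lowest and GLP1RA highest, without overlap with any other group, and Combo overlapped both Vehicle and antiIL17A. Vehicle exceeded WT by a log2 difference of 0.69 (SE 0.165, edgeR adjusted p = 0.00209) and GLP1RA exceeded Vehicle by 0.81 (SE 0.163, edgeR adjusted p = 0.000632), a value that reached 1.02 with library totals. Combo differed from Vehicle by 0.13 (SE 0.163, edgeR adjusted p = 0.559).

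*Tgfb1* read 1241, 1109 and 1019 normalized counts in WT ATMs, 1488, 1246 and 1308 in Vehicle and 2146, 1962 and 2311 with GLP1RA. It read 3265, 3010.0 and 2883 with antiIL17A and 2200.3, 2574 and 2553 with Combo. All treated libraries lay above all WT and Vehicle libraries, and Combo overlapped GLP1RA. Vehicle was above WT by 0.26 (SE 0.106, edgeR adjusted p = 0.0443) on the log2 scale, which turned to -0.18 with library totals. The log2 difference from Vehicle was 0.67 (SE 0.105, edgeR adjusted p = 6.46e-05) with GLP1RA, 1.18 (SE 0.105, edgeR adjusted p = 1.2e-07) with antiIL17A and 0.86 (SE 0.105, edgeR adjusted p = 5.39e-06) with Combo, the last being 1.27 with library totals. Summed monocyte and macrophage markers took the order antiIL17A, GLP1RA, Combo, Vehicle and WT, whereas *Csf1r* and *Adgre1* were lowest in Vehicle, and their part in the *Tgfb1* result was not tested.

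**Figure D3:**
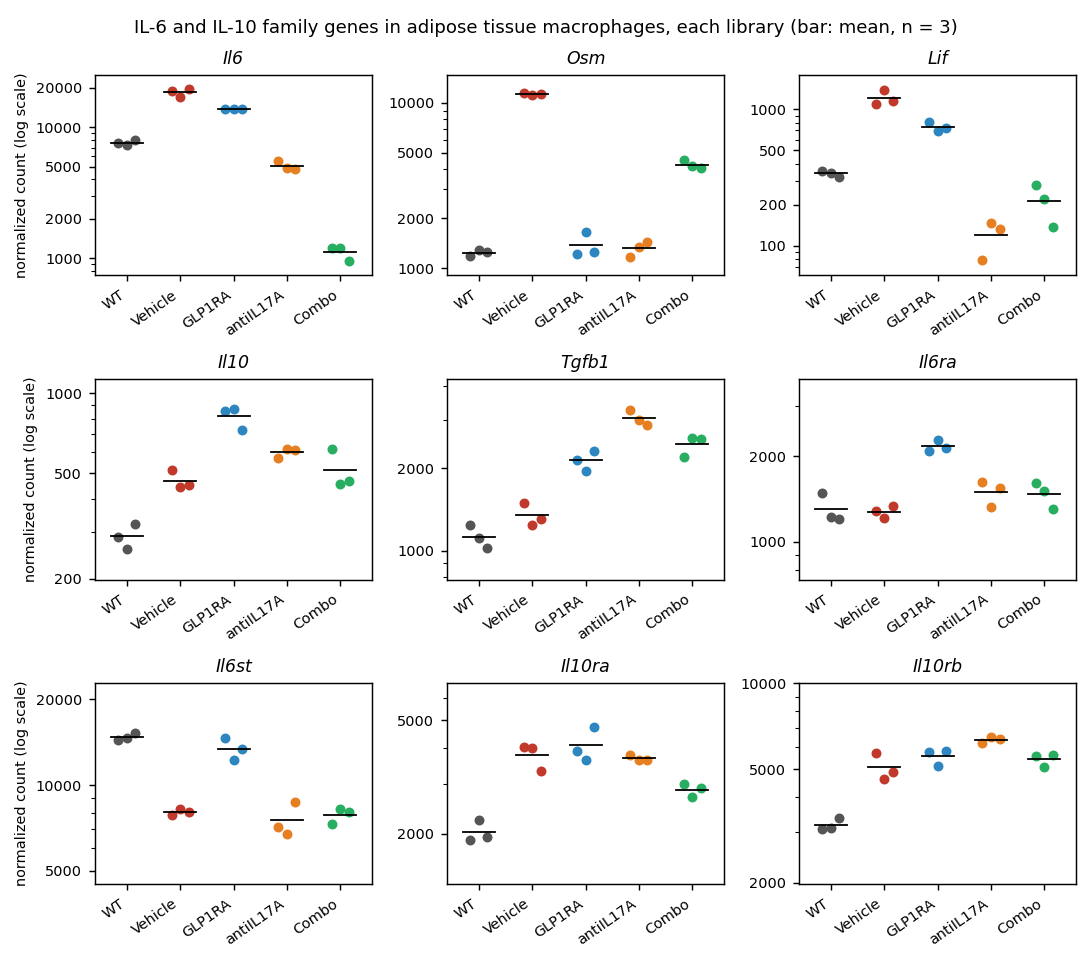
Normalized counts (logarithmic axis, scaled for each gene) of the 9 genes in each ATM library by group, 3 points per group with the mean as a bar. *Osm* is highest in the 3 Vehicle libraries and *Il6* is lowest in the 3 Combo libraries, where it was 16.4-fold below Vehicle.

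The receptor chains in ATMs showed smaller differences, none of them called. *Il6st* read 14399, 14577 and 15271 normalized counts in WT and 7844, 8256 and 8078 in Vehicle. With GLP1RA it read 14584, 12277 and 13366, overlapping WT, and with Combo 7312, 8246 and 8026, overlapping Vehicle. Vehicle was below WT by a log2 difference of -0.87 (SE 0.0835, edgeR adjusted p = 2.7e-07), and GLP1RA was above Vehicle by 0.73 (SE 0.0834, edgeR adjusted p = 2.02e-06). The first was -1.31 with library totals and then called. Stromal marker sums were likewise lowest in Vehicle ATMs, and their part in the *Il6st* result was not tested.

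*Il10ra* and *Il10rb* were lowest in WT ATMs. *Il10ra* had a mean of 2028 ± 181 in WT (SD, n = 3), 3785 ± 405 in Vehicle, 4106 ± 583 with GLP1RA, 3686 ± 93.9 with antiIL17A and 2853 ± 149.6 with Combo. Vehicle exceeded WT by a log2 difference of 0.90 (SE 0.104, edgeR adjusted p = 2.23e-06), and Combo was below Vehicle by -0.41 (SE 0.103, edgeR adjusted p = 0.00381), a difference that was 0.0083 with library totals. *Il10rb* had a mean of 3188 ± 167 in WT and 5077 ± 579 in Vehicle, with a log2 difference of 0.67 (SE 0.0788, edgeR adjusted p = 2.74e-06), and was highest with antiIL17A at 6336 ± 162. *Il6ra* did not differ detectably between Vehicle and WT ATMs, with -0.032 (SE 0.115, edgeR adjusted p = 0.832). It was highest with GLP1RA, where its log2 difference from Vehicle was 0.76 (SE 0.115, edgeR adjusted p = 4.14e-05).

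Against Vehicle ATMs, 1 of 9 genes was called with GLP1RA (*Osm*, lower; 31.8% of all genes called), 4 with antiIL17A (*Il6*, *Osm* and *Lif* lower, *Tgfb1* higher; 35.5%) and 3 with Combo (*Il6*, *Osm* and *Lif*, lower; 26.4%). These 3 comparisons share the Vehicle libraries. Against WT, Combo ATMs had 3 of 9 genes called (21.6% of all genes), with *Il6* lower at a log2 difference of -2.76 (SE 0.0831, edgeR adjusted p = 5.43e-13), *Osm* higher at 1.76 (SE 0.107, edgeR adjusted p = 2.14e-09) and *Tgfb1* higher at 1.12 (SE 0.105, edgeR adjusted p = 3.86e-07). Against GLP1RA, 3 of 9 were called (18.7%), with *Il6* at -3.62 (SE 0.0858, edgeR adjusted p = 5.06e-14), *Lif* at -1.81 (SE 0.253, edgeR adjusted p = 3.3e-05) and *Osm* at 1.61 (SE 0.106, edgeR adjusted p = 6.89e-09). Against antiIL17A, 2 of 9 were called (14.2%), with *Il6* at -2.18 (SE 0.0815, edgeR adjusted p = 1.72e-11) and *Osm* at 1.68 (SE 0.106, edgeR adjusted p = 7.75e-09). *Lif* was 0.84 there and passed the limit without antiIL17A replicate 2 or without Combo replicate 3.

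Whether both agents together differed from the sum of each was read from the contrast Combo minus GLP1RA minus antiIL17A plus Vehicle on the log2 scale. Combo and Vehicle, which share a sign in this contrast, also held more *Xist* RNA than GLP1RA and antiIL17A in both tissues. In ATMs they also held more neutrophil marker RNA. The departures cannot be told apart from these differences between the groups, whose part was not tested. All 9 genes departed from additivity at an FDR below 0.05 in each tissue, where 68.6% of all BM genes and 50.5% of all ATM genes did. In BM the departure was largest for *Il10*, at 2.97 (SE 0.861, edgeR adjusted p = 0.00251), and *Lif*, at 2.94 (SE 0.549, edgeR adjusted p = 1.1e-05), both of which had already fallen to few counts with either agent. For *Il6* in BM it was 1.73 (SE 0.364, edgeR adjusted p = 6.37e-05) and for *Osm* 0.89 (SE 0.0452, edgeR adjusted p = 1.63e-20). In ATMs *Osm* had 4.71 (SE 0.153, edgeR adjusted p = 5.8e-13). With each agent alone its libraries overlapped those of WT, and with Combo they did not. *Lif* in ATMs had 1.53 (SE 0.352, edgeR adjusted p = 0.00186). *Il6* in ATMs had -1.76 (SE 0.110, edgeR adjusted p = 1.96e-09), being lower with Combo than the sum of the single-agent differences. The departures of *Il10ra*, *Il10rb* and *Tgfb1* in BM, at 0.33, 0.32 and 0.26, changed sign with library totals, and 7 of 9 genes then passed in BM, without *Il10ra* (adjusted p = 0.157, edgeR) and *Il10rb* (adjusted p = 0.0516, edgeR).

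**Figure D4:**
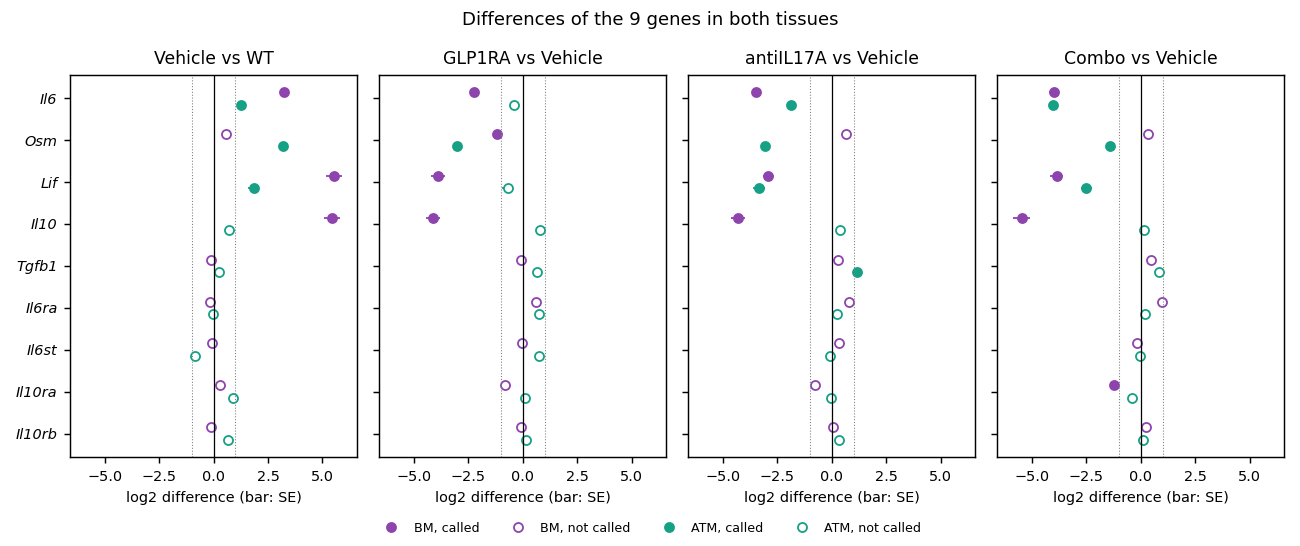
Log2 differences of the 9 genes in 4 comparisons (horizontal axis, bars of 1 SE) in BM (purple) and ATMs (green), filled where called, with dotted lines at -1 and 1. *Il10* lies below -4 in BM and between 0 and 1 in ATMs in all 3 treated groups against Vehicle, and *Il6* with Combo lies at about the same place in both tissues.

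Effects were compared between tissues in a fit of all 30 libraries over the 13076 genes in both tables. For Vehicle against WT, 4 of 9 genes differed between tissues (28.7% of all genes called). *Osm* rose more in ATMs than in BM, with an ATM minus BM difference of 2.63 (SE 0.112, edgeR adjusted p = 5.7e-17), whereas *Il10*, *Lif* and *Il6* rose more in BM, with -4.74 (SE 0.425, edgeR adjusted p = 3.63e-10), -3.70 (SE 0.540, edgeR adjusted p = 1.74e-06) and -1.95 (SE 0.210, edgeR adjusted p = 1.06e-08). With GLP1RA against Vehicle, 4 of 9 differed (26.6%), with *Il10* at 4.94 (SE 0.372, edgeR adjusted p = 1.19e-11), *Lif* at 3.20 (SE 0.456, edgeR adjusted p = 1.42e-06), *Il6* at 1.84 (SE 0.184, edgeR adjusted p = 3.32e-09) and *Osm* at -1.84 (SE 0.111, edgeR adjusted p = 1.24e-13). With antiIL17A, 3 of 9 differed (29.3%), with *Il10* at 4.64 (SE 0.377, edgeR adjusted p = 4.72e-11), *Il6* at 1.59 (SE 0.218, edgeR adjusted p = 6.8e-07) and *Osm* at -3.79 (SE 0.112, edgeR adjusted p = 1.65e-20). With Combo, 3 of 9 differed (28.1%), with *Il10* at 5.65 (SE 0.426, edgeR adjusted p = 1.12e-11), *Lif* at 1.41 (SE 0.465, edgeR adjusted p = 0.012) and *Osm* at -1.73 (SE 0.109, edgeR adjusted p = 2.78e-13). The *Lif* value with Combo missed the FDR threshold without BM Combo replicate 2 (1.07, adjusted p = 0.0617, edgeR). For *Il6* with Combo the difference between tissues was -0.0037 with an SE of 0.202, and *Il6* was 15.9-fold lower in BM and 16.4-fold lower in ATMs.

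Levels per kilobase of exon, which can be set beside each other between genes, were as follows (mean ± SD of CPM per kilobase, n = 3). In Vehicle BM, *Osm* had 53.9 ± 1.84, *Tgfb1* 32.6 ± 1.05, *Il6* 3.83 ± 0.241, *Il10* 3.19 ± 0.176 and *Lif* 1.12 ± 0.122. In Vehicle ATMs, *Il6* had 229 ± 14.6, *Osm* 150.0 ± 1.87, *Il10* 10.8 ± 0.901, *Lif* 8.36 ± 1.08 and *Tgfb1* 8.05 ± 0.751. *Osm* was thus the most abundant of the 5 ligands in Vehicle BM and *Il6* in Vehicle ATMs. Among receptor chains in Vehicle, *Il10ra* had 21.8 ± 0.237 in BM and 32.6 ± 3.48 in ATMs, and *Il6st* had 2.83 ± 0.0798 in BM and 21.9 ± 0.561 in ATMs. The tissues were counted and scaled as separate tables, so these levels are given side by side with no test.

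Other genes of these pathways were counted over lists fixed by name. Their counts stand beside 19.5% of all BM genes called for Vehicle against WT (1260 higher and 1338 lower of 13353) and 35.4% of all ATM genes (2125 higher and 3909 lower of 17059). For Combo against Vehicle 17.7% of all BM genes were called (878 higher and 1487 lower) and 26.4% of all ATM genes (2411 higher and 2085 lower). With GLP1RA and antiIL17A against Vehicle the shares were 16.7% and 16.1% in BM and 31.8% and 35.5% in ATMs. For Vehicle against WT and for GLP1RA, antiIL17A and Combo against Vehicle, the median log2 difference of all genes was -0.017, 0.010, 0.0065 and 0.021 in BM and -0.21, 0.19, 0.17 and 0 in ATMs. Of the STAT3 targets and feedback genes, 10 of 14 were called higher and 1 lower in Vehicle BM than in WT, with a list median of 1.40 on the log2 scale. Among them, *Socs3*, the inhibitor of gp130 signaling, had means of 943 ± 99.4 normalized counts in WT and 2273 ± 28.2 in Vehicle (SD, n = 3), a log2 difference of 1.26 (SE 0.0519, edgeR adjusted p = 7e-24). *Socs1*, a related inhibitor, had 2.03 (SE 0.0887, edgeR adjusted p = 5.97e-23), and *Bcl3*, a nuclear IκB protein, 1.61 (SE 0.0525, edgeR adjusted p = 2.09e-27). *Cish*, *Pim1*, *Cebpb*, *Il4ra*, *Nfil3*, *Sbno2* and *Tnip3* were the others called higher, and *Cebpd* was called lower. Against Vehicle, 8 of 14 were called lower with GLP1RA (*Socs1*, *Bcl3*, *Pim1*, *Cebpb*, *Il4ra*, *Nfil3*, *Il1rn* and *Tnip3*). With antiIL17A the same genes but *Cebpb* were lower, 7 of 14, and *Cebpd* was higher. The medians were -1.37 and -1.02. With Combo, 3 were lower (*Socs1*, *Il1rn* and *Tnip3*) and 1 was higher (*Cebpd*), with a median of -0.56, and *Socs3* was at 2070.4 ± 34.8 against 2273 ± 28.2 in Vehicle.

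In ATMs, 4 of the 14 STAT3 targets were called higher and 1 lower in Vehicle than in WT, with a median of 0.67. The lower one was *Socs3*, at 41072 ± 726 in WT and 15409 ± 866 in Vehicle, a log2 difference of -1.41 (SE 0.0405, edgeR adjusted p = 8.04e-14), the opposite sign to BM. Higher were *Bcl3*, *Cebpb*, *Il4ra* and *Il1rn*. *Il1rn*, which encodes the IL-1 receptor antagonist, had a log2 difference of 3.77 (SE 0.0679, edgeR adjusted p = 3.6e-16) where neutrophil markers were also high, and their part was not tested. Against Vehicle ATMs, 3 of 14 were called lower with GLP1RA (*Socs1*, *Cebpb* and *Il1rn*). With antiIL17A these 3 and *Bcl3*, *Pim1*, *Cebpd*, *Il4ra* and *Nfil3* were lower and *Tnip3* was higher. With Combo 7 were lower, namely *Socs1*, *Bcl3*, *Cebpb*, *Cebpd*, *Il4ra*, *Sbno2* and *Il1rn*. The medians were -0.45, -1.10 and -0.88 with GLP1RA, antiIL17A and Combo. Of the 8 JAK and STAT signaling genes, *Stat3* was called higher in Vehicle than in WT in both tissues, with 1.05 (SE 0.0249, edgeR adjusted p = 2.99e-32) in BM and 1.09 (SE 0.0591, edgeR adjusted p = 2.63e-10) in ATMs. With Combo it was lower than Vehicle in ATMs, at -1.21 (SE 0.0592, edgeR adjusted p = 9.27e-11), and 0.065 from Vehicle in BM.

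Of the other IL-6 family ligands and receptors, 9 of 13 were tested in BM and 12 in ATMs, and the rest were not analysed here. *Il27*, a gp130 ligand subunit, was called higher in Vehicle than in WT in both tissues, with 2.67 (SE 0.147, edgeR adjusted p = 1.49e-19) in BM and 5.52 (SE 1.01, edgeR adjusted p = 0.000398) in ATMs. It was lower than Vehicle in all 3 treated groups of both tissues. The IL-27 receptor chain *Il27ra* was called lower in Vehicle than in WT in both tissues, at -1.33 (SE 0.135, edgeR adjusted p = 1.57e-11) in BM and -1.53 (SE 0.195, edgeR adjusted p = 6.84e-06) in ATMs. The LIF receptor *Lifr* was called higher in Vehicle BM than in WT, at 1.01 (SE 0.0934, edgeR adjusted p = 1.18e-12). *Il31ra* was the other gene called lower in Vehicle BM, which gives 2 higher and 2 lower (median 0.18). In Vehicle ATMs *Il11*, *Il27*, *Ebi3* and *Clcf1* were among those higher than in WT, and *Ctf1* and *Il27ra* were lower (list median 0.40). With Combo against Vehicle, *Il31ra* was higher and *Il27* and *Clcf1* were lower in BM (median -0.35), and *Il27ra* was higher and *Il11* and *Il27* were among those lower in ATMs (median -0.74).

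Of the other IL-10 family genes, 6 of 9 were tested in each tissue. *Il22*, an IL-10 relative made by lymphocytes that signals through *Il10rb*, had 190 to 269 counts in the Vehicle BM libraries and 0 in all 12 other BM libraries. Taking the limit of 3 counts over a group, Vehicle was at least 271-fold higher than WT, and Combo at least 252-fold lower than Vehicle. In ATMs *Il22* had 76 to 94 counts in WT, 90 to 110 in Vehicle, 0 to 7 with GLP1RA, 10 to 53 with antiIL17A and 21 to 64 with Combo. *Il20ra* and *Il20rb* were also called higher in Vehicle BM than in WT (list median 0.99), and in ATMs *Il20rb* was higher and *Il22ra2* lower (median 0.71). With Combo against Vehicle, *Ifnlr1* was higher and *Il22* and *Il20ra* were lower in BM (median 0.16), and *Il20ra* was higher and *Il22* and *Il20rb* were lower in ATMs (median -0.27). For the IL-6 receptor sheddases *Adam10* and *Adam17* the log2 differences of the 7 comparisons lay between -0.34 (*Adam17* with GLP1RA against Vehicle in BM) and 0.56 (*Adam17* in Vehicle against WT ATMs), within the limit of 1.

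In the TGF-β axis, 5 of 17 genes tested in BM were called higher in Vehicle than in WT, where 19.5% of all BM genes were called in either direction (*Tgfb3*, *Eng*, *Ltbp1*, *Lrrc32* and *Thbs1*), and 4 of these, all but *Eng*, were called lower with Combo than with Vehicle. No call went the other way in these 2 comparisons. With antiIL17A against Vehicle the same 4 genes were called lower and *Ltbp4* was called higher. With GLP1RA against Vehicle *Tgfb3*, *Lrrc32* and *Thbs1* were lower and *Tgfbr3* and *Ltbp2* were higher. *Thbs1*, which encodes the TGF-β activator thrombospondin 1, had 3713 ± 9.82 normalized counts in WT BM, 24428 ± 434 in Vehicle and 2005 ± 87.9 with Combo. *Lrrc32* had 32.3 ± 6.54, 116 ± 8.47 and 19.8 ± 12. In ATMs *Thbs1* had 32953 ± 2003 in WT, 115805 ± 3164 in Vehicle and 25045 ± 2160.4 with Combo, and *Lrrc32* 5101 ± 330.2, 22679 ± 839 and 3091 ± 467. Both were thus higher in Vehicle than in WT and lower with Combo than with Vehicle in each tissue, while *Tgfb1* itself was not lower with Combo. Endothelial markers in ATMs likewise summed to 431 to 455 CPM in WT, 1360 to 1520 in Vehicle and 360 to 445 with Combo. In BM the endothelial sum was not highest in Vehicle, whereas the monocyte and macrophage sum was. The part of these cells in the *Thbs1* and *Lrrc32* results was not tested. In ATMs 5 of 19 genes of the axis were higher in Vehicle than in WT (*Eng*, *Lrrc32*, *Furin*, *Thbs1* and *Smad4*) and 4 lower (*Tgfb3*, *Tgfbr3*, *Ltbp3* and *Ltbp4*), where 35.4% of all ATM genes were called. With Combo 3 were higher than with Vehicle (*Ltbp3*, *Ltbp4* and *Itgb8*) and 4 lower (*Eng*, *Ltbp1*, *Lrrc32* and *Thbs1*). With GLP1RA 8 were higher than with Vehicle and 3 lower, and with antiIL17A 3 were higher and 5 lower.

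Among 9 TGF-β targets and feedback genes, *Ski*, *Pmepa1*, *Bhlhe40* and *Cdkn1a* were among those called higher in Vehicle BM than in WT (list median 1.34). With each treatment *Skil*, *Pmepa1*, *Bhlhe40* and *Cdkn1a* were among those lower than with Vehicle (list medians -1.08, -1.07 and -1.01 with GLP1RA, antiIL17A and Combo). In ATMs *Smad7*, *Pmepa1* and *Cdkn1a* were among those higher and *Tgfbi* was lower in Vehicle than in WT (median 0.20). With Combo *Tgfbi* was higher and *Pmepa1* and *Cdkn1a* were among those lower than with Vehicle (median -0.54). The lists and the 9 genes share the Vehicle libraries in these comparisons, and nothing particular to a list is read from its counts.

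**Figure D5:**
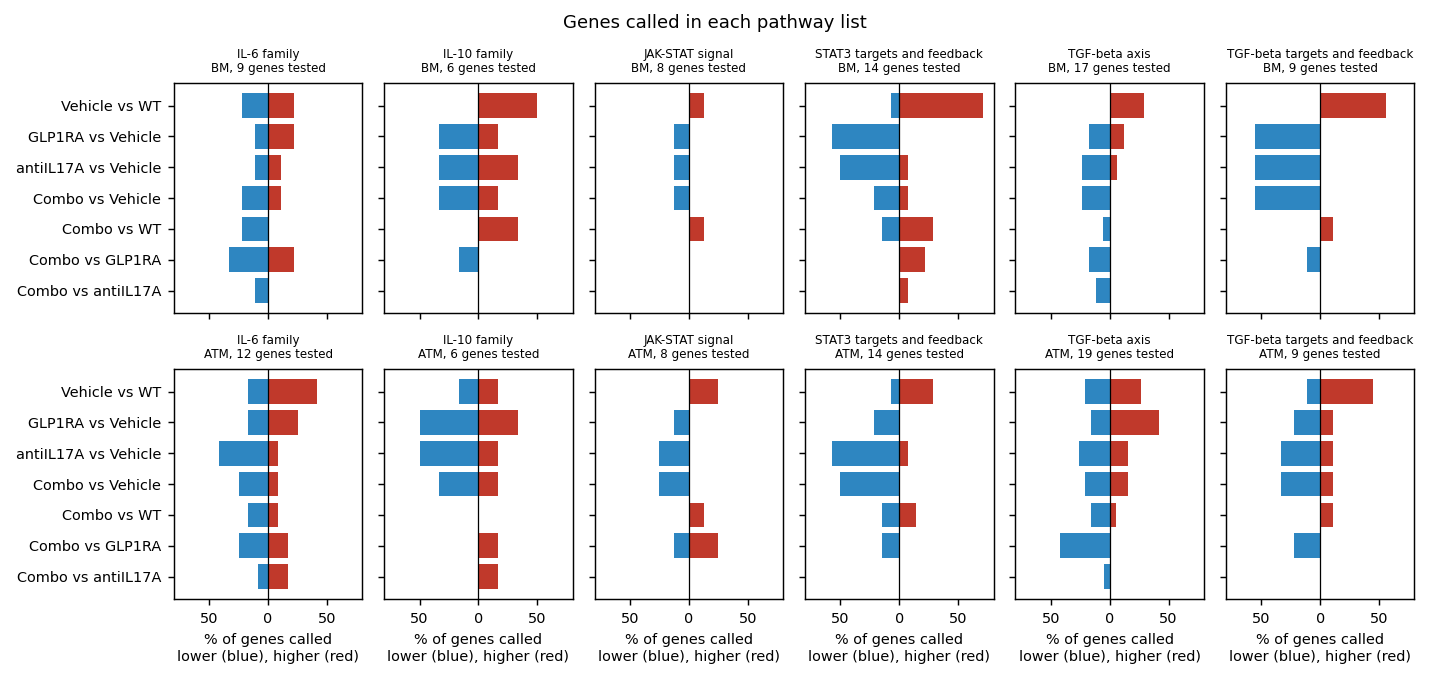
Percent of the tested genes of 6 pathway lists called higher (red, to the right) or lower (blue, to the left) in 7 comparisons, in BM (upper row) and ATMs (lower row). STAT3 targets in BM stand to the right for Vehicle against WT, with 10 of 14 genes, and to the left for GLP1RA and antiIL17A against Vehicle, with 8 and 7 genes.

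Genes whose pattern over the 15 libraries of a tissue was most like a ligand were read from Pearson's r of log2(normalized count + 1), as a description. In BM, *Il6* was most like *Fth1* (r = 0.976), *Tmem87b* (0.975) and *Scarb2* (0.974), *Osm* most like *Por* (0.956), *Rhob* (0.941) and *C2cd3* (0.939), and *Il10* most like *Slc24a3* (0.971), *C3ar1* (0.965) and *Tnfrsf12a* (0.965). In ATMs, *Il6* was most like *Selp* (0.972), *Chchd2* (0.968) and *Phf13* (0.966), *Osm* most like *G0s2* (0.995), *Muc1* (0.994) and *Irg1* (0.993), and *Il10* most like *C1qtnf6* (0.952), *Pde4d* (0.948) and *Inpp5d* (0.944). The 15 libraries fall into 5 tight groups, so these values rest mainly on 5 group means.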

How the data were processed

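Raw counts per gene symbol were made by the authors with STAR 2.7.2a on mm10 (GRCm38) and featureCounts 2.0.1 on GENCODE M22, without strand, in read pairs of mapping quality 10 or more, where a pair that overlapped several genes added to all of them. Both deposited tables of counts were filtered on low counts by a rule that is not given in the sources used here (the smallest gene totals are 54 in ATMs and 55 in BM). All libraries were labelled as 1 batch.

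Groups were taken from the labels. Each tissue's table was fitted separately over all 15 libraries with edgeR 4.0.16 (R 4.3.3, TMM, robust quasi-likelihood test, filterByExpr, which removed 0 genes), with p-values adjusted by Benjamini-Hochberg over all genes of the table. SEs were computed as the log2 difference over the square root of F. The fit was also run on simulated counts with differences planted in few genes of the Combo group. In these data many genes differed between all groups, so that run does not show the error rates here. Effects were compared between tissues by a tissue term over all 30 libraries, which the main fit took as independent. The p-values measure the spread between these samples, which need not be the spread between mice. Exact intervals and count floors cover counting error only. Alternatives were DESeq2 1.42.0, its size factors, library totals, other filters, no fold limit, a replicate block, smaller fits and leaving out each library. The 9 genes, the pathway and marker lists and the rule for named genes (the 9, called genes of fixed lists, sex-linked and marker genes, and the 3 most alike) were chosen with earlier results of these data known. Some genes of the lists are counted but not reported here by name.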

Additional observations from a re-analysis of the deposited data

Results flagged for a closer look

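The effects that differed between tissues by a test of the difference itself, in the edgeR fit of all 30 libraries at an FDR below 0.05 and a difference above 1, were 14 of the 36 compared. Values are ATM minus BM on the log2 scale. *Il10* differed in all 4 comparisons, by -4.74 for Vehicle against WT and by 4.94, 4.64 and 5.65 for GLP1RA, antiIL17A and Combo against Vehicle. *Osm* also differed in all 4, by 2.63, -1.84, -3.79 and -1.73 in the same order. *Lif* differed in 3, by -3.70 for Vehicle against WT, 3.20 with GLP1RA and 1.41 with Combo. *Il6* differed in 3, by -1.95 for Vehicle against WT, 1.84 with GLP1RA and 1.59 with antiIL17A. *Il10* and *Lif* rest on few counts in BM outside the Vehicle libraries, and the 4 comparisons share those libraries.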

How the results depend on the processing

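DESeq2 and its size factors in edgeR changed no call of the 9 genes. Leaving out the filter on low counts repeated the main fit, because that filter removed no genes, so it tests nothing further. Without the limit on fold change, the counts of genes called in BM were 8 for Vehicle against WT, 8, 8 and 9 for GLP1RA, antiIL17A and Combo against Vehicle, and 8, 8 and 7 for Combo against WT, GLP1RA and antiIL17A, and in ATMs they were 8 for Vehicle against WT, 7 with GLP1RA and 5 with Combo against Vehicle, and 8, 7 and 6 for Combo against WT, GLP1RA and antiIL17A. Over all genes, 7015 to 10227 were then called per comparison in BM (757 to 2598 with the limit) and 4875 to 9914 in ATMs (2429 to 6051). Requiring 10 counts in every library removed *Il10* and *Lif* from BM and left 1 call for Vehicle against WT, 2, 1 and 2 for GLP1RA, antiIL17A and Combo against Vehicle, 0 for Combo against WT and 7 differences between tissues, and over all genes it left 422 (of 757) and 1428 (of 2151) calls for BM Combo against antiIL17A and antiIL17A against Vehicle and 768 to 3934 in the 6 ATM comparisons other than Combo against Vehicle. Library totals in place of TMM moved the median of all genes by -0.429 to 0.234 in BM and -0.438 to 0.417 in ATMs. With them 2 genes were called in BM Combo against WT, 1 in BM Combo against antiIL17A and 2 in ATM GLP1RA against Vehicle. There were also 3 in BM GLP1RA against Vehicle and 4 in ATM Combo against Vehicle. With library totals 17 differences between tissues were called, adding *Il6st* for Vehicle against WT (-1.16), *Tgfb1* with antiIL17A (1.09) and *Il10ra* with Combo (1.27). Signs turned only there: in BM for GLP1RA against Vehicle *Il6st* (0.21), *Il10rb* (0.13) and *Tgfb1* (0.16), for Combo against WT *Il10rb* (-0.0094), for Combo against antiIL17A *Tgfb1* (-0.012) and for the departure *Il10ra* (-0.098), *Il10rb* (-0.11) and *Tgfb1* (-0.17). In ATMs they turned for *Tgfb1* in Vehicle against WT (-0.18), for *Il6st* (0.25) and *Il10ra* (0.31) in antiIL17A against Vehicle and for *Il6st* (0.38) and *Il10ra* (0.0083) in Combo against Vehicle, and between tissues for *Il10rb* with Combo (0.27). Fitting only the libraries compared left 0 calls in BM Combo against WT. Leaving out 1 library gave 0 to 1 calls in BM Combo against WT and against antiIL17A, 2 to 3 in BM Combo against GLP1RA, 4 to 5 in BM Combo against Vehicle, 2 to 3 in ATM Combo against antiIL17A and 13 to 14 differences between tissues, with no change in the other counts. The cause of these changes was not tested. Same-numbered replicates of different groups did not deviate together within a tissue (30 correlations per tissue, median -0.00621 in BM and -0.00258 in ATMs, with 1 of the BM values and 0 of the ATM values over 0.1). The small spread within groups limits what these correlations can show about pairing. They do not cover BM and ATM libraries of the same group and number, which may come from the same mouse. Fitting those as pairs again called 14 differences between tissues. With the replicate number as a block, 1 gene was called in BM Combo against antiIL17A (*Lif*), *Il10* lost its call in BM Combo against GLP1RA, and no other call changed. Depth limits *Il10* and *Lif* in BM, which had 1 to 29 counts per library outside Vehicle.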
